A study of Mus musculus with 20 samples.

Results

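The skeletal muscle sarcomere and calcium genes are 36 genes of striated muscle, chosen by name and found in the deposited tables by Ensembl identifier through the GENCODE vM21 annotation of mm10, 36 of 55335 genes in all. They comprise 12 thick filament genes, 8 thin filament genes, 8 genes of the Z disc, titin and its scaffold, 4 calcium handling genes and 4 genes of energy and oxygen supply. RNA was sequenced from 20 tumours of CT26, a mouse colon carcinoma line, as total RNA of the whole tumour tissue. In 4 groups of 5 mice, tumours carried a vector and received PBS, carried a vector and received an antibody against the T cell receptor PD-1, carried a POLE mutant and received PBS, or carried the POLE mutant and received anti-PD-1. The labels name POLE, a replicative DNA polymerase, but the title of the series has CHEK2, a checkpoint kinase, so these groups are called mutant. Every group shares the CT26 line, and the sources used here give no site of implantation, promoter, clone or age of the mice. Replicate numbers only name a tumour.

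Skeletal muscle fibres contract when calcium released from the sarcoplasmic reticulum binds troponin on the thin filament, which lets myosin heads of the thick filament pull on actin between the Z discs. Fast fibres and slow fibres use different members of the same families, for example myosin Myh4 against Myh7, troponin C Tnnc2 against Tnnc1 and troponin T Tnnt3 against Tnnt1. Sarcomere genes are not genes of colon epithelium, and RNA of a whole tumour piece cannot show which cell a transcript came from.

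Promoters are shown for Acta1, the actin of the skeletal thin filament, Myh4, the fastest myosin heavy chain, and Des, the muscle intermediate filament desmin. These members carry the results below and differ in how far they rest near 0 in tumours with little muscle RNA. Each sequence is the 250 bases before a RefSeq start site on GRCm38.p6, 5′ to 3′ on the gene's strand. Capitals mark CAGCTG (an E box bound by myogenic factors), CATTCC (the M-CAT motif), TATAAA and the CArG box of serum response factor, on either strand.
Acta1: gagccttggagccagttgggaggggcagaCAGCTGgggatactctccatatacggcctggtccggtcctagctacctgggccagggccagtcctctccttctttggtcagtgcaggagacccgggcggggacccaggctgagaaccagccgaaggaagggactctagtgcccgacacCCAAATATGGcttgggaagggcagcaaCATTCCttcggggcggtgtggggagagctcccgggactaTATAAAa
Myh4: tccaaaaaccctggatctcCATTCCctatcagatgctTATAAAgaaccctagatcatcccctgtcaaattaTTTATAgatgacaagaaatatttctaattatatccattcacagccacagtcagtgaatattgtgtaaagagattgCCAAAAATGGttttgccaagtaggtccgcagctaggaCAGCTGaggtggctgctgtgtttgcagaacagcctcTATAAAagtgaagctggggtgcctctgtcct
Des: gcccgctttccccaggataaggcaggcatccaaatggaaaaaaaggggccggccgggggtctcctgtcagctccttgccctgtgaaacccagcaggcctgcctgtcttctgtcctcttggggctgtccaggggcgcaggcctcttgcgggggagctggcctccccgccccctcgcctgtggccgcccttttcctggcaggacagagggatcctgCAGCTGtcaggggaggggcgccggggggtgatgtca
The Acta1 window is chr8:123894776-123895025 on the minus strand and holds CAGCTG at -221 to -216, a CArG box at -73 to -64, CATTCC at -46 to -41 and TATAAA at -7 to -2, counted from the start site. The Myh4 window is chr11:67237562-67237811 on the plus strand and holds CATTCC at -231 to -226, a CArG box at -104 to -95, CAGCTG at -67 to -62 and, among 3 matches, TATAAA at -31 to -26. The Des window, chr1:75360042-75360291 on the plus strand, holds CAGCTG at -36 to -31 and none of the other motifs in capitals.

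Of the 36 genes, 28 had a promoter in the RefSeq table, with 33 start sites. CAGCTG stood in 14 of these 33 windows (42.4%) and in 13.0% of 32851 windows of the same length over all genes, and CANNTG, of which CAGCTG is 1 form, in 87.9% and 66.2%. CATTCC stood in 27.3% against 12.6% and TATAAA in 21.2% against 12.4%. A CArG box stood in 3 windows (9.09% against 1.47%), of Acta1, Myh4 and the slow myosin light chain Myl3. A MEF2 site stood in 2 (6.06% against 0.508%), of the giant spring protein titin (Ttn) and the actin-binding Xirp2. A match is a description of letters in the window and not a bound site.

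Muscle RNA differed widely between tumours of the same group. Values are FPKM (fragments divided by transcript length and library size), and the 5 values of a group are listed from replicate 1 to 5. Being per length, they can be set side by side between genes, except where a library favours short or long transcripts, which was not tested. Of 10 housekeeping genes, none was listed at 0 in any library, and the 3 least correlated libraries (vector anti-PD-1 replicate 1 and mutant anti-PD-1 replicates 1 and 2) had a mean Spearman correlation of 0.776, 0.748 and 0.835 with the rest, against 0.900 to 0.930 for the other 17. Skeletal actin Acta1 (ENSMUSG00000031972, chr8:123891769-123894751) was at 2.15, 0.0761, 1.24, 0.0639 and 0.255 FPKM in the vector PBS tumours and at 72.8, 0.199, 145, 0.634 and 10.6 FPKM in the vector anti-PD-1 tumours. It was at 0.145, 55.4, 259, 0.239 and 0.778 FPKM in the mutant PBS tumours and at 64, 364, 86.9, 111 and 31.6 FPKM in the mutant anti-PD-1 tumours. Acta1 reached at least 10 FPKM in 10 tumours, which were 0 of 5 vector PBS, 3 of 5 vector anti-PD-1, 2 of 5 mutant PBS and 5 of 5 mutant anti-PD-1 tumours, and it stayed below 3 FPKM in the other 10. The mutant anti-PD-1 tumours did not overlap the vector PBS tumours and overlapped both other groups. Of the 13982 genes fitted below, 14.7% were also higher without overlap in mutant anti-PD-1 than in vector PBS tumours. In bulk RNA, more muscle cells and more muscle RNA per cell cannot be told apart.

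A score per tumour, the mean log2(FPKM + 1) over the 36 genes, was 0.69, 0.42, 0.50, 0.41 and 0.39 in the vector PBS tumours and 2.54, 0.39, 3.35, 0.50 and 1.2 in the vector anti-PD-1 tumours. It was 0.38, 2.37, 4.10, 0.42 and 0.47 in the mutant PBS tumours and 2.33, 4.56, 3.02, 2.89 and 1.94 in the mutant anti-PD-1 tumours. Group means were 0.49 ± 0.12, 1.60 ± 1.30, 1.55 ± 1.66 and 2.95 ± 1.0 (SD, n = 5). Every mutant anti-PD-1 tumour lay above every vector PBS tumour, while the other groups each held tumours at the vector PBS level beside tumours far above it. The mean score was 1.11 higher with anti-PD-1 than with PBS in vector tumours (0.67 without vector anti-PD-1 replicate 3) and 1.40 higher in mutant tumours. It was 1.06 higher in mutant than in vector tumours under PBS (0.42 without mutant PBS replicate 3) and 1.35 higher under anti-PD-1.

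Summed over the 36 genes, the level was 56.5 to 68.6 FPKM in the vector PBS tumours. It was 528, 54.4, 802, 67.4 and 101 FPKM in the vector anti-PD-1 tumours, 55.1, 348, 1635, 72.5 and 65.4 FPKM in the mutant PBS tumours and 318, 2418, 537, 516 and 198 FPKM in the mutant anti-PD-1 tumours. As a share of all FPKM of a library this was at most 0.0188% in vector PBS tumours, 0.231% in vector anti-PD-1 replicate 3, 0.475% in mutant PBS replicate 3 and 0.722% in mutant anti-PD-1 replicate 2. In vector PBS tumours most of the sum was the enolase Eno3, at 41.3 to 51.1 FPKM. Without Eno3 the share was 0.00367% to 0.0068% in vector PBS tumours. It was then 0.213%, 0.446% and 0.698% in vector anti-PD-1 replicate 3, mutant PBS replicate 3 and mutant anti-PD-1 replicate 2. Of the 36 genes, 27 had their highest value in mutant anti-PD-1 replicate 2, and 4 in replicate 1 of that group. The enolase Eno3 and the tropomyosin Tpm2 were at 1 FPKM or more in all 20 tumours, and Myh7 and Myl3, both of slow fibres, in none.

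**Figure D1:**
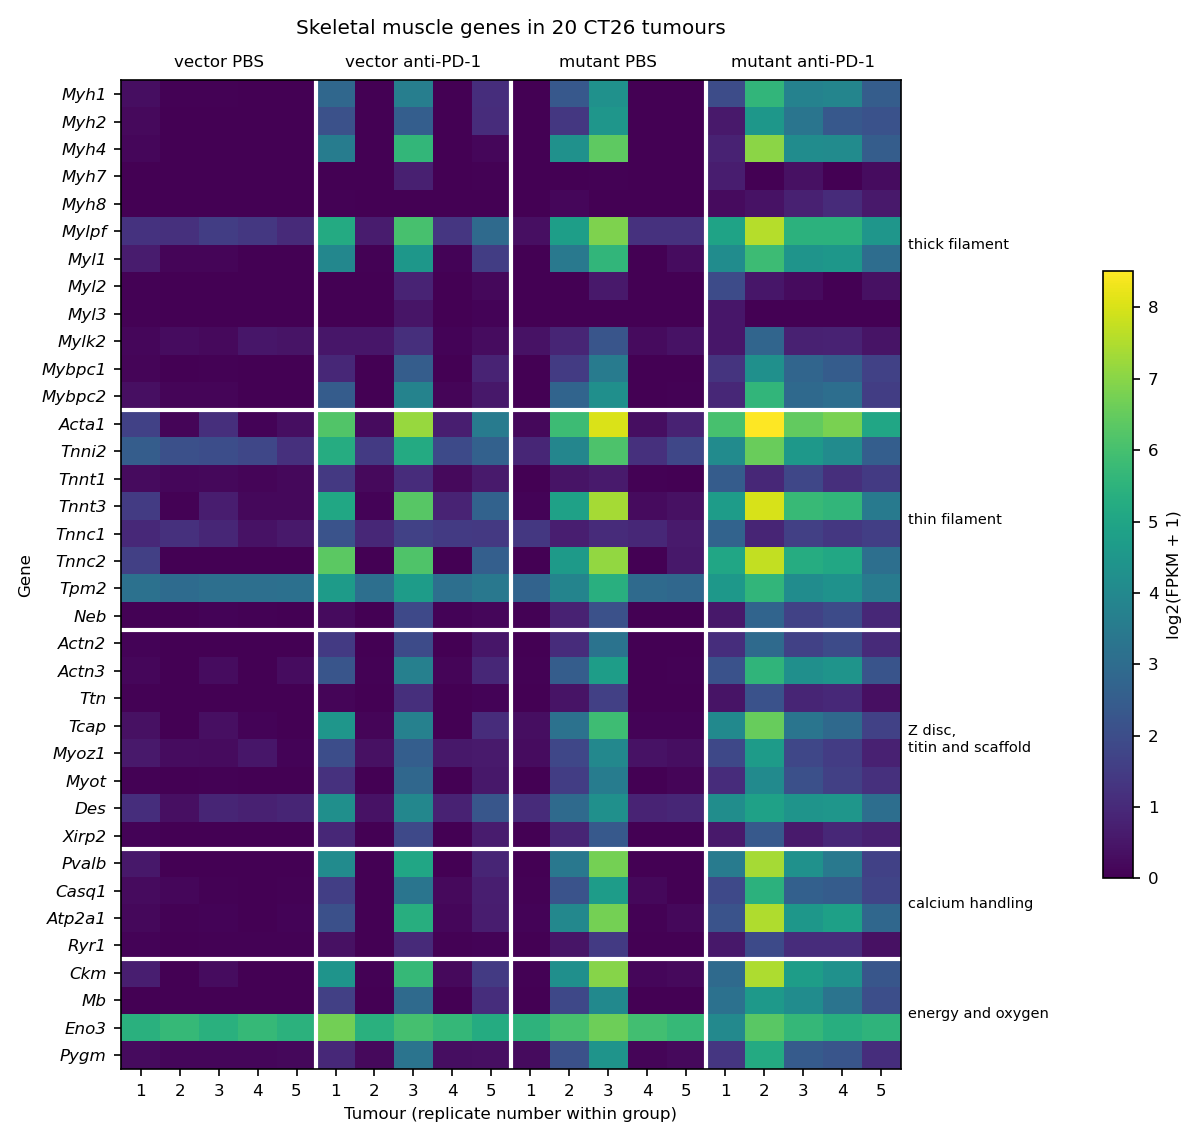
Level of each of the 36 genes (rows, ordered by role) in each of the 20 tumours (columns, by group), as log2(FPKM + 1) on a colour scale. Most rows light up together in the same 10 tumours, those with Acta1 at 10 FPKM or more, while Eno3 and Tpm2 are present in all 20.

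**Figure D2:**
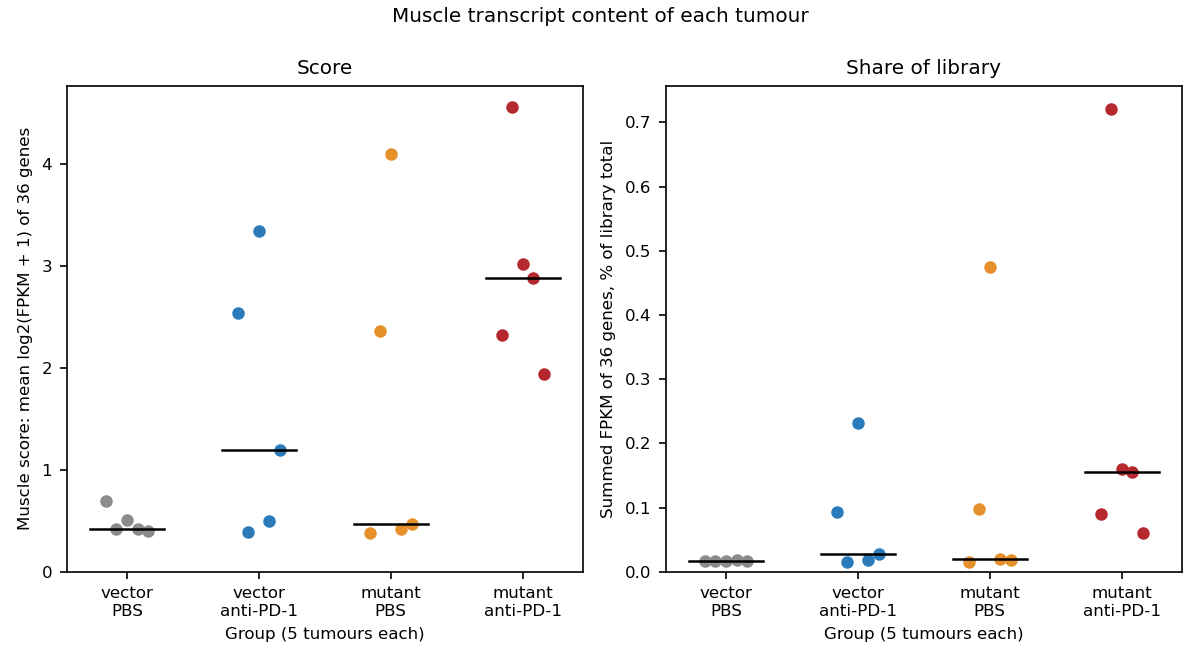
Muscle score (mean log2(FPKM + 1) over the 36 genes) and the share of all FPKM that the 36 genes took, in percent, for each tumour by group, with a bar at each group's median. The 5 vector PBS tumours sit between 0.39 and 0.69 on the score, and the 5 mutant anti-PD-1 tumours between 1.94 and 4.56. Most of the share in vector PBS tumours is Eno3.

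In the thick filament, the fast myosin heavy chains led. Myh4 (ENSMUSG00000057003), the chain of the fastest fibres, was at 0.122, 0.0117, 0.0086, 0 and 0 FPKM in vector PBS and 11, 0.012, 49, 0 and 0.106 FPKM in vector anti-PD-1 tumours. It was at 0.0138, 18.6, 83.8, 0 and 0 FPKM in mutant PBS and 0.768, 129, 16.6, 16.3 and 4.75 FPKM in mutant anti-PD-1 tumours. The highest Myh4 value, in mutant anti-PD-1 replicate 2, was far above that of replicate 1 of the same group, and all groups but vector PBS held both high and low tumours. Myh1, a chain of fast fibres of the next kind, was at 0.242, 0.0236, 0.0246, 0 and 0 FPKM (PBS) and 6.15, 0, 11.5, 0 and 1.15 FPKM (anti-PD-1) in vector tumours, and at 0, 4.1, 18.7, 0 and 0.0155 FPKM (PBS) and 2.94, 47.4, 12.8, 13.6 and 4.7 FPKM (anti-PD-1) in mutant tumours. Myh2, the chain of fast oxidative fibres, was at 0.151, 0, 0, 0 and 0 FPKM (PBS) and 3.28, 0, 4.78, 0 and 1.14 FPKM (anti-PD-1) in vector tumours, and at 0, 1.61, 21.1, 0 and 0 FPKM (PBS) and 0.503, 21.7, 8.91, 4.1 and 3.41 FPKM (anti-PD-1) in mutant tumours. For both, each mutant anti-PD-1 tumour was above each vector PBS tumour (background 14.7% of all genes). Of 50-base stretches of transcript, Myh1 shares 26.7% with other genes, Myh2 26.9% and Myh4 18.9%, so reads can move between these chains and their split is uncertain.

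Mylpf, the fast regulatory light chain, was at 1.38, 1.26, 1.9, 1.59 and 1.0 FPKM (PBS) and 35.8, 0.578, 64.9, 1.54 and 6.7 FPKM (anti-PD-1) in vector tumours, and at 0.28, 26.5, 116, 1.34 and 1.33 FPKM (PBS) and 29.6, 187, 43.8, 43.3 and 21.4 FPKM (anti-PD-1) in mutant tumours. Unlike the heavy chains it was above 0 in every tumour, at 0.280 to 1.90 FPKM in the 10 tumours with Acta1 below 3 FPKM. The fast light chain Myl1 reached 7.31 to 55.8 FPKM in mutant anti-PD-1 tumours and 0 to 0.57 FPKM in vector PBS tumours. The myosin-binding proteins C of slow and fast muscle, Mybpc1 and Mybpc2, reached 1.42 to 18.2 and 0.916 to 47.2 FPKM in mutant anti-PD-1 tumours, and no more than 0.0787 and 0.270 FPKM in vector PBS tumours. Mylk2, the skeletal light chain kinase, did not follow Acta1 as closely, with 0.118 to 0.445 FPKM in vector PBS and 0.364 to 5.89 FPKM in mutant anti-PD-1 tumours.

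The slow thick filament genes were scarce. The slow heavy chain Myh7 was at 0.00825, 0, 0.00602, 0 and 0.00866 FPKM in vector PBS and 0, 0, 0.685, 0 and 0.0286 FPKM in vector anti-PD-1 tumours. It was at 0, 0, 0.0373, 0 and 0 FPKM in mutant PBS and 0.615, 0.012, 0.308, 0.0151 and 0.226 FPKM in mutant anti-PD-1 tumours. Its 3 highest values were in vector anti-PD-1 replicate 3 and mutant anti-PD-1 replicates 1 and 3, while the tumours with the most Myh4, mutant anti-PD-1 replicate 2 and mutant PBS replicate 3, had 0.012 and 0.0373 FPKM. Of its 50-base stretches, 22.2% are shared, all of these with the cardiac chain Myh6 among others, so part of its reads can be assigned to either. The slow light chains Myl2 and Myl3 peaked at 2.89 and 0.416 FPKM, both in mutant anti-PD-1 replicate 1, the tumour of its group with the least Myh4.

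Myh8, the perinatal myosin heavy chain of developing and regenerating fibres, had another pattern. It was at 0, 0, 0.00441, 0 and 0 FPKM (PBS) and 0.029, 0, 0.022, 0 and 0 FPKM (anti-PD-1) in vector tumours, and at 0, 0.0982, 0.0188, 0 and 0 FPKM (PBS) and 0.181, 0.335, 0.699, 1.05 and 0.511 FPKM (anti-PD-1) in mutant tumours. All 5 mutant anti-PD-1 tumours were above all 15 others, including mutant PBS replicate 3, the tumour with the next highest Acta1 of the series. Myh8 shares 21.4% of its 50-base stretches with other genes, most often Myh2 and Myh1, so its level is uncertain in the same way.

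The fast thin filament members were high in the tumours with high Acta1. Tnnc2, the calcium-binding troponin C of fast fibres, was at 2.07, 0, 0, 0 and 0 FPKM (PBS) and 81.4, 0, 70.4, 0 and 4.92 FPKM (anti-PD-1) in vector tumours, and at 0, 23.9, 138, 0 and 0.468 FPKM (PBS) and 32.2, 213, 38, 33.2 and 7.59 FPKM (anti-PD-1) in mutant tumours. Tnnc2 was listed at 0 in 8 tumours, none of them mutant anti-PD-1. The fast troponin T Tnnt3 spanned 0.0404 to 254 FPKM over the series, and the fast inhibitory subunit Tnni2 0.882 to 93.7 FPKM. Nebulin (Neb), the ruler of thin filament length, stayed at 5.71 FPKM or less. The tropomyosin Tpm2, which other contractile cells also make, was at 6.88 to 8.0 FPKM in vector PBS and 10.7 to 47.8 FPKM in mutant anti-PD-1 tumours.

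The slow troponins had lower levels. Tnnt1 (ENSMUSG00000064179, chr7:4504570-4516382), the slow troponin T, was at 0.183, 0.121, 0.147, 0.075 and 0.126 FPKM in vector PBS and 1.68, 0.161, 1.12, 0.169 and 0.522 FPKM in vector anti-PD-1 tumours. It was at 0, 0.371, 0.529, 0.0361 and 0 FPKM in mutant PBS and 4.59, 0.917, 2.55, 1.24 and 1.73 FPKM in mutant anti-PD-1 tumours. The mutant anti-PD-1 tumours lay above every mutant PBS and every vector PBS tumour, and overlapped the vector anti-PD-1 tumours. Mutant anti-PD-1 replicate 1 was highest in Tnnt1, at 4.59 FPKM, and replicate 2, highest in Acta1, was lowest of its group at 0.917 FPKM.

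Tnnc1 (ENSMUSG00000091898, chr14:31208312-31211729), the troponin C of slow and cardiac fibres, was at 0.96, 1.24, 0.892, 0.321 and 0.501 FPKM (PBS) and 3.55, 0.908, 2.11, 1.73 and 1.65 FPKM (anti-PD-1) in vector tumours, and at 1.61, 0.637, 1.08, 0.908 and 0.541 FPKM (PBS) and 5.48, 0.838, 2.04, 1.63 and 1.96 FPKM (anti-PD-1) in mutant tumours. It was above 0 in all 20 tumours, and its groups overlapped throughout. Tnnc1 overlaps Nisch on the opposite strand, and the strandedness of the libraries is not given in the sources used here. Reads from a stretch that the 2 genes share may therefore belong to either. Other members also overlap a coding gene on the opposite strand: Acta1 (Gm20388), Tnnc2 (Ube2c), Atp2a1 (Rabep2), Myh7 (Gm17428), Myl2 (Ccdc63) and Myl3 (Pth1r).

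At the Z disc, desmin (Des, ENSMUSG00000026208, chr1:75360329-75368579) ties neighbouring myofibrils together and is also made by smooth muscle and pericytes. It was at 1.16, 0.281, 0.842, 0.736 and 0.848 FPKM in vector PBS and 17.7, 0.329, 14.5, 0.763 and 3.87 FPKM in vector anti-PD-1 tumours. It was at 1.09, 6.6, 18.4, 0.81 and 0.891 FPKM in mutant PBS and 16.9, 28.3, 19.98, 21 and 7.42 FPKM in mutant anti-PD-1 tumours. Des kept a base level of 0.281 to 1.16 FPKM in tumours with little Acta1. Mutant PBS replicate 3, at 18.4 FPKM, lay among the mutant anti-PD-1 tumours.

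Actn3, the alpha-actinin of fast fibres, was at 0.114, 0, 0.202, 0.0186 and 0.214 FPKM (PBS) and 3.75, 0.0427, 11.9, 0.0949 and 0.941 FPKM (anti-PD-1) in vector tumours, and at 0.0283, 4.7, 25.4, 0 and 0.0334 FPKM (PBS) and 3.44, 45.9, 17.8, 20.3 and 3.67 FPKM (anti-PD-1) in mutant tumours. Titin (Ttn), which spans from the Z disc to the middle of the sarcomere, was at 0.0235, 0.0131, 0.0195, 0.00712 and 0.00989 FPKM (PBS) and 0.0771, 0.0146, 1.22, 0.0106 and 0.0672 FPKM (anti-PD-1) in vector tumours, and at 0.00548, 0.374, 2.09, 0.00725 and 0.0123 FPKM (PBS) and 0.356, 3.46, 0.826, 0.953 and 0.272 FPKM (anti-PD-1) in mutant tumours. For both, the vector PBS tumours stayed below 1 FPKM, and each other group held at least 1 tumour above 1 FPKM, for Actn3 all 5 mutant anti-PD-1 tumours. Titin stood low for its tumour in vector anti-PD-1 replicate 1, at 0.0947 FPKM per 100 FPKM of Tnnc2, against 1.11 to 3.58 in the other tumours with at least 2 FPKM of Tnnc2. That library is 1 of 3 with the lowest correlation with the rest, and the part of this in its muscle values was not tested. The titin cap Tcap, myozenin Myoz1, myotilin (Myot), the sarcomeric actinin Actn2 and Xirp2 peaked at 92.0, 24.6, 15.7, 8.42 and 4.23 FPKM.

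For calcium, Atp2a1, the pump that returns calcium to the reticulum of fast fibres, was at 0.148, 0.0429, 0.0644, 0 and 0.0475 FPKM in vector PBS and 3.27, 0, 39.5, 0.11 and 0.615 FPKM in vector anti-PD-1 tumours. It was at 0.071, 14.5, 105, 0.0279 and 0.138 FPKM in mutant PBS and 3.51, 179, 21.5, 27.5 and 6.17 FPKM in mutant anti-PD-1 tumours. Set against Tnnc2, the pump was low in vector anti-PD-1 replicate 1 (4.02 FPKM per 100), mutant anti-PD-1 replicate 1 (10.9) and vector anti-PD-1 replicate 5 (12.5), and also in vector PBS replicate 1 (7.15), while the other 7 tumours with at least 2 FPKM of Tnnc2 had 56.0 to 84.2. Vector anti-PD-1 replicates 1 and 3 thus held like amounts of Tnnc2, 81.4 and 70.4 FPKM, and unlike amounts of pump RNA, 3.27 and 39.5 FPKM. Vector anti-PD-1 replicate 1 is 1 of the 3 least correlated libraries and had the highest total, 566913 FPKM. The Atp2a1 transcript has 3477 bases and that of Tnnc2 700, and an effect of transcript length in that library was not tested. Ryr1, the calcium release channel, was at 0.0505, 0.00801, 0.0269, 0.0276 and 0.0258 FPKM (PBS) and 0.307, 0.0132, 1.04, 0.024 and 0.068 FPKM (anti-PD-1) in vector tumours, and at 0.0025, 0.383, 1.74, 0.0191 and 0.0122 FPKM (PBS) and 0.472, 2.75, 1.13, 1.13 and 0.314 FPKM (anti-PD-1) in mutant tumours. Pvalb, the calcium buffer parvalbumin of the fastest fibres, was at 0.478, 0, 0, 0 and 0 FPKM (PBS) and 16.2, 0, 32, 0 and 0.825 FPKM (anti-PD-1) in vector tumours, and at 0, 9.54, 105, 0 and 0 FPKM (PBS) and 10.7, 164, 19, 9.79 and 2.16 FPKM (anti-PD-1) in mutant tumours. Casq1, which stores calcium in the reticulum, peaked at 43.1 FPKM. All 4 calcium genes were highest in mutant anti-PD-1 replicate 2 with mutant PBS replicate 3 next.

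Among the genes of energy and oxygen, Ckm, the muscle creatine kinase, was at 0.655, 0, 0.214, 0 and 0 FPKM (PBS) and 20.01, 0.0448, 51.3, 0.149 and 1.7 FPKM (anti-PD-1) in vector tumours, and at 0.0281, 18, 124, 0.109 and 0.17 FPKM (PBS) and 6.77, 176, 25.5, 18.8 and 3.89 FPKM (anti-PD-1) in mutant tumours. Mb (ENSMUSG00000018893, chr15:77015487-77050670), the oxygen store myoglobin of oxidative fibres, was listed at 0 in each of the 5 vector PBS tumours and was at 2.03, 0, 6.72, 0 and 1.17 FPKM in vector anti-PD-1 tumours. It was at 0, 2.6, 15.3, 0 and 0 FPKM in mutant PBS and 7.96, 23.4, 16.8, 8.7 and 3.14 FPKM in mutant anti-PD-1 tumours. Mb was listed at 0 in 10 tumours and at more than 1 FPKM in the other 10, the same 10 in which Acta1 reached 10 FPKM, and overlaps Apol6 on the opposite strand.

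Eno3, the muscle form of enolase, stood apart from the rest. It was at 41.7, 50.9, 41.3, 51.1 and 43.5 FPKM (PBS) and 104, 41.7, 63.7, 49.9 and 36.6 FPKM (anti-PD-1) in vector tumours, and at 44.3, 64.8, 99, 59.999 and 50.8 FPKM (PBS) and 15.1, 80.3, 49.5, 39.6 and 45.7 FPKM (anti-PD-1) in mutant tumours. The 10 tumours with Acta1 below 3 FPKM had 41.3 to 59.999 FPKM of Eno3, and the lowest value of the series, 15.1 FPKM, was in mutant anti-PD-1 replicate 1, where Acta1 was 64.0 FPKM. The glycogen phosphorylase Pygm ran from 0.0922 to 36 FPKM and was highest in mutant anti-PD-1 replicate 2.

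Fast fibre genes exceeded slow ones wherever muscle RNA was present, but by amounts that differed widely between tumours. The mean log2(FPKM + 1) of 12 fast genes minus that of 5 slow genes was 3.05, 3.87 and 1.02 in vector anti-PD-1 replicates 1, 3 and 5, 3.29 and 5.43 in mutant PBS replicates 2 and 3, and 1.26, 6.09, 3.57, 3.72 and 1.94 in the mutant anti-PD-1 tumours. In the remaining 10 it lay between -0.15 and 0.53. The group means were 0.20 (PBS) and 1.59 (anti-PD-1) in vector tumours and 1.77 (PBS) and 3.32 (anti-PD-1) in mutant tumours. On linear FPKM, the 5 slow genes summed to between 0.154 and 9.81 FPKM per 100 FPKM of the 12 fast genes in these 10 tumours. The lowest was mutant anti-PD-1 replicate 2 and the highest replicate 1 of the same group, so the range within that group spanned the range of the series. In the 10 tumours with Acta1 below 3 FPKM the 5 slow genes still summed to 0.396 to 1.90 FPKM. Mutant PBS replicate 2 lay within that range. The rest had 2.13 (mutant PBS replicate 3) to 14.0 FPKM (mutant anti-PD-1 replicate 1). Mutant anti-PD-1 replicate 2, with the most Acta1, had 2.21 FPKM. Both measures can therefore follow the amount of muscle RNA, and fibre make-up was not tested.

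Fast chains also led among the myosin heavy chains in the 10 tumours where Myh1, Myh2, Myh4, Myh7, Myh8 and the embryonic Myh3 summed to at least 2 FPKM. Myh4 was 53.8%, 74.2% and 4.10% of that sum in vector anti-PD-1 replicates 1, 3 and 5 and 76.2% and 67.7% in mutant PBS replicates 2 and 3. In mutant anti-PD-1 tumours it was 11.9%, 65.0%, 40.8%, 45.3% and 32.0%. Myh1 took 15.1% to 45.7%, Myh2 6.60% to 44% and the slow Myh7 at most 9.56%, in mutant anti-PD-1 replicate 1. The developmental chains Myh3 and Myh8 together were 25.0%, 0.247%, 5.24%, 5.39% and 11.9% in the mutant anti-PD-1 tumours and at most 0.403% in the other groups, except vector anti-PD-1 replicate 5 at 6.35%, whose sum was only 2.59 FPKM. The troponin T pair also varied between tumours. Slow Tnnt1 was at 18.2, 0.361, 4.92, 2.60 and 17.2 FPKM per 100 FPKM of fast Tnnt3 in the mutant anti-PD-1 tumours. It was at 1.32 and 0.321 in mutant PBS replicates 2 and 3, and at 5.17, 1.43 and 9.69 in vector anti-PD-1 replicates 1, 3 and 5.

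**Figure D3:**
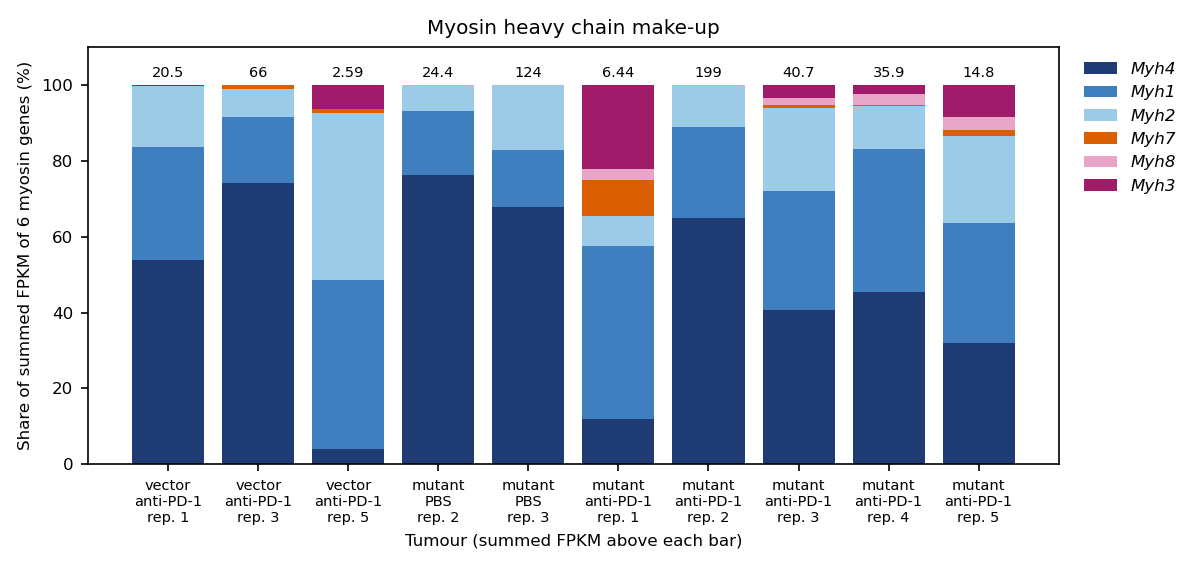
Share of each of 6 myosin heavy chains in their summed FPKM, in percent, for the 10 tumours with a sum of at least 2 FPKM (sum above each bar). The fast chains Myh4, Myh1 and Myh2 make up most of every bar, and the developmental chains reach 25.0% in mutant anti-PD-1 replicate 1.

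Genes of immature and regenerating muscle were low throughout and highest in the mutant anti-PD-1 tumours. Myog, the transcription factor myogenin that starts the fusion and differentiation of myoblasts, was at 13.9, 0.15, 2.64, 3.11 and 1.74 FPKM in the mutant anti-PD-1 tumours and at no more than 0.409 FPKM in the other 15. The lowest of the 5, replicate 2, overlapped the other groups. Myh3, the embryonic myosin heavy chain, was at 1.43, 0.156, 1.44, 0.88 and 1.25 FPKM in mutant anti-PD-1 tumours, with 0 to 0.164 FPKM in vector anti-PD-1 and 0.0117 FPKM or less in both PBS groups. Mymk, the myoblast fusion protein myomaker, was at 1.62, 0.155, 0.191, 0.498 and 0.479 FPKM in mutant anti-PD-1 tumours and listed at 0 in all others. Chrng, the fetal acetylcholine receptor subunit, was at 0.48, 0.0215, 0.304, 0.436 and 0.272 FPKM in mutant anti-PD-1 tumours and at 0.0151 FPKM or less elsewhere. These are low levels, the highest of the 4 genes being the 13.9 FPKM of Myog in mutant anti-PD-1 replicate 1.

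A set of 3 genes named for the heart, of which Actc1 and Myl4 also serve embryonic skeletal muscle, was high in the same tumours. Actc1, the cardiac actin, was at 4.95, 1.34, 1.56, 0.70 and 1.72 FPKM in mutant anti-PD-1 tumours, up to 1.49 FPKM in mutant PBS replicate 3 and 0.137 FPKM or less in the other 14. Tnni3, the cardiac troponin I, was at 5.48, 2.22, 1.38, 1.42 and 1.64 FPKM in mutant anti-PD-1 tumours and at 0.681 FPKM or less in the rest, and overlaps Dnaaf3 on its own strand. Myl4, the embryonic and atrial light chain, was at 1.67, 0.393, 1.95, 2.13 and 1.36 FPKM in mutant anti-PD-1 tumours and reached 1.13 FPKM in vector anti-PD-1 replicate 1. Of the other 6 genes of the 9-gene heart list, Myl7 was listed at 0 in all 20 tumours, Ryr2 was at 0.00481 FPKM or less and above 0 only in mutant anti-PD-1 tumours, and Myh6 was at 0.247 FPKM or less, with its highest value in mutant anti-PD-1 replicate 1. Nppa was at 0.368 FPKM or less, while Nppb was at 2.64 to 66.3 FPKM and Tnnt2 at 0.322 to 2.38 FPKM over the 20 tumours. In the fit of genes above a minimum level described below, 5 of the 9 were tested for anti-PD-1 against PBS in mutant tumours. Of these, 3 rose (Tnni3, Myl4 and Actc1, background 15.9% of all genes higher). Tnnt2 fell by 0.64 (limma adjusted p = 0.0288, background 14.6% lower), a call lost without that minimum.

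A limma fit without a filter on low values, over 35519 genes, tested these scarce genes. With anti-PD-1 against PBS in mutant tumours, 6 of 10 myogenic genes rose by limma (adjusted p under 0.05; background 10.8% of genes higher), among them Myog (log2 1.82 ± 0.43 SE, adjusted p = 0.00806), Myh3 (0.95 ± 0.14, adjusted p = 0.000271), Chrng (0.36 ± 0.07, adjusted p = 0.00138) and Mymk (0.62 ± 0.15, adjusted p = 0.00839). Myh8 rose by 0.56 ± 0.09 (limma adjusted p = 0.000643), Tnni3 by 1.49 ± 0.19 (adjusted p = 0.000109), Actc1 by 1.19 ± 0.26 (adjusted p = 0.00431) and Myl4 by 1.02 ± 0.20 (adjusted p = 0.00213). For mutant against vector under anti-PD-1, 7 of 10 myogenic genes were higher (background 12.3%), and these 8 genes all passed. Each of the 8 passed in both comparisons in all 11 fits that left out single tumours or the 3 least correlated libraries. The other called myogenic genes were less stable. For anti-PD-1 in mutant tumours, Myod1 and Myf6 were lost in 4 and 6 of 10 fits without a single tumour. For mutant against vector under anti-PD-1, Myf5, Myod1 and Myf6 were lost in 6, 3 and 1 of 10. In vector tumours with anti-PD-1 against PBS, and between mutant and vector under PBS, 0 of the 10 passed (backgrounds 0.0% and 0.169%). In both, 0 of the 10 had an unadjusted p under 0.05 by limma (share of all genes not given here).

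The difference between the anti-PD-1 responses of mutant and vector tumours was itself tested. By limma without a filter it passed for 2 of 10 myogenic genes (background 3.01%), Myh3 (0.89 ± 0.20, adjusted p = 0.0223) and Chrng (0.35 ± 0.09, adjusted p = 0.0445). It also passed by limma for 1 of the 36 members, Myh8 (0.54 ± 0.13, adjusted p = 0.0310), and for 1 of 8 heart-named genes tested, Tnni3 (1.32 ± 0.27, adjusted p = 0.0166). Myh3 and Tnni3 passed in 21 of 21 fits that left out tumours, Myh8 in 13 and Chrng in 4, and for Myog it missed the threshold (1.69 ± 0.60, adjusted p = 0.138). These genes are near 0 in 3 groups and vary in the mutant anti-PD-1 group, while the fit shares 1 spread over the groups. Per 100 FPKM of Acta1, Myog was at 21.7, 0.0413, 3.03, 2.80 and 5.51 FPKM in the mutant anti-PD-1 tumours and at 0 to 0.232 FPKM in the other tumours with Acta1 of at least 10 FPKM, except vector anti-PD-1 replicate 5 at 3.88. The tumour with the most mature muscle RNA, mutant anti-PD-1 replicate 2, thus had the least Myog for its Acta1 in its group.

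**Figure D4:**
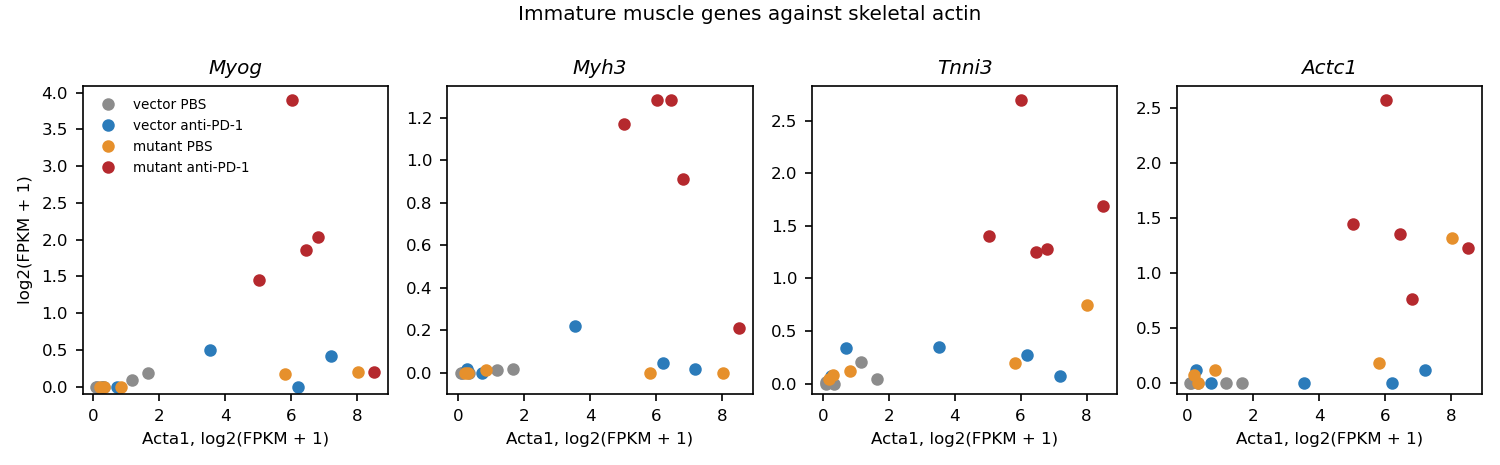
Levels of Myog, Myh3, Tnni3 and Actc1 against Acta1 in each of the 20 tumours, coloured by group, on log2(FPKM + 1) axes. Vector anti-PD-1 and mutant PBS tumours with Acta1 above 50 FPKM stay low on Myog, Myh3 and Tnni3, where the mutant anti-PD-1 tumours lie above them, except replicate 2 on Myog.

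The group comparisons rested on a limma fit of log2(FPKM + 1) over the 13982 genes that reached 1 FPKM in 5 or more libraries. The comparisons share groups of tumours, so their values stand side by side and are not independent. Of the 36 genes, 29 passed that filter, many only through the tumours with high values, and Myh7, Myh8, Myl2, Myl3, Mylk2, Ttn and Xirp2 did not. With anti-PD-1 against PBS in vector tumours, 0 of 29 passed an adjusted p of 0.05 (background 0.0% of all genes higher). The groups did not overlap for 0 of 29 (background 0.279%). An unadjusted p under 0.05 by limma was found for 2 of 29, and in either direction for 426 of the 13982 genes. All 29 differences were positive, with a median log2 of 1.27 against -0.08 over all genes. Acta1 differed by 2.91 ± 1.47 (SE, n = 5 per group, limma adjusted p = 0.724), Tnnt1 by 0.53 ± 0.26 and Mb by 1.13 ± 0.70 (both adjusted p = 0.724).

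In mutant tumours, anti-PD-1 against PBS, 4 of 29 rose (13.8%, against a background of 15.9% of all genes higher), so the share was near that of any gene, and 0 fell (background 14.6%). Tnnt1 rose by 1.37 ± 0.27 on the log2(FPKM + 1) scale (limma adjusted p = 0.000935), Mb by 2.34 ± 0.71 (adjusted p = 0.0188), Des by 2.24 ± 0.73 (adjusted p = 0.0268) and Tnnc1 by 0.74 ± 0.27 (adjusted p = 0.0444). Acta1, whose difference was larger but more variable, missed the threshold (3.68 ± 1.48, limma adjusted p = 0.0677), as did Myh4 (1.69 ± 1.37, adjusted p = 0.371), and Eno3 differed by -0.58 ± 0.35. By role, the 4 were 2 thin filament genes, 1 of the Z disc and 1 of oxygen supply, with 0 of 7 thick filament and 0 of 4 calcium genes tested. The median over the 29 was 1.69 against -0.10 over all genes, and in 1 tested gene, Tnnt1, the groups did not overlap (background 11.1%). The count was 21 without mutant PBS replicate 3, the tumour of that group with the most muscle RNA, and 1 or 2 without mutant PBS replicate 1, 4 or 5 or mutant anti-PD-1 replicate 2, and 2 without the 3 least correlated libraries. Within the libraries whose titles have an identifier with M the count was 0, and within those with a number alone 19. For these alternative fits the share of all genes called is not given here, so their counts have no background beside them. Of 21 alternatives, Tnnt1 passed in 20, Mb in 15, Des in 13 and Tnnc1 in 8.

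For mutant against vector under PBS, 0 of 29 were called higher by limma (background 0.529%) and 0 lower (background 0.923%). The groups overlapped in all 29 (background 3.3% higher without overlap), and the median was 1.25. An unadjusted p under 0.05 by limma was found for 0 of 29, and in either direction for 1536 of 13982 genes. Acta1 differed by 2.37 ± 1.47 (limma adjusted p = 0.648). Under anti-PD-1, 2 of 29 were higher in mutant than in vector tumours (6.90%, against a background of 17.8%), Mb by 2.38 ± 0.71 (limma adjusted p = 0.0155) and Tnnt1 by 0.88 ± 0.27 (adjusted p = 0.0165), with a median of 1.78. Acta1 differed by 3.14 ± 1.48 (limma adjusted p = 0.113) and Des by 1.91 ± 0.73 (adjusted p = 0.0517). That count was 18 without the third and 6 without the first vector anti-PD-1 tumour, 6 and 7 without mutant anti-PD-1 replicates 1 and 5, and 1 without replicate 2 or without the 3 least correlated libraries. It was 1 in M-style and 0 in number-only libraries alone, and 0 with a spread of its own for each group. These counts, too, stand without the share of all genes called in the same fit.

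The difference of the 2 anti-PD-1 responses passed for 0 of 29 (background 7.4%). Its unadjusted p by limma was under 0.05 for 1 of 29, and in either direction for 3779 of 13982 genes. The difference had a median of 0.37 over the 29. It was 0.83 ± 0.37 for Tnnt1 (limma adjusted p = 0.161), 1.2 ± 1.0 for Mb (adjusted p = 0.477) and 0.77 ± 2.09 for Acta1 (adjusted p = 0.862), so the mature fibre genes did not show a difference of response beyond their spread at this group size. Intervals this wide also do not show that the responses were alike.

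A comparison of the mutant anti-PD-1 with the vector PBS tumours, added after the values were seen, called 28 of the 29 filtered genes higher (background 16.6%), all but Eno3. The 2 groups did not overlap for 27 of the 29 (background 14.7%). Many of the 29 passed the filter only through the tumours where they were high, so neither count is support. Without the filter, 23 of all 36 were higher (background 12.1%). The comparison shares its tumours with those above and is no independent evidence. Acta1 rose by 6.05 ± 1.48 (limma adjusted p = 0.00440), Tnnt3 by 5.14 ± 1.36 (adjusted p = 0.00726), Tnnc2 by 5.12 ± 1.42 (adjusted p = 0.00984) and Mylpf by 4.42 ± 1.14 (adjusted p = 0.00634). Tnnt1 rose by 1.42 ± 0.27 (limma adjusted p = 0.000541) and Eno3 differed by -0.15 ± 0.35 (adjusted p = 0.765). By role and without the filter, 6 of 12 thick filament, 7 of 8 thin filament, 4 of 8 Z disc, 4 of 4 calcium and 2 of 4 energy genes rose. Of the 12 fast genes 9 did, all but Myh4, Tnni2 and Mybpc2, and of the 5 slow genes Tnnt1 and Tnnc1. The count of 28 was 13 without mutant anti-PD-1 replicate 2, 11 without the 3 least correlated libraries, 5 in M-style and 18 in number-only libraries alone. Shares of all genes in those fits are not given here.

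**Figure D5:**
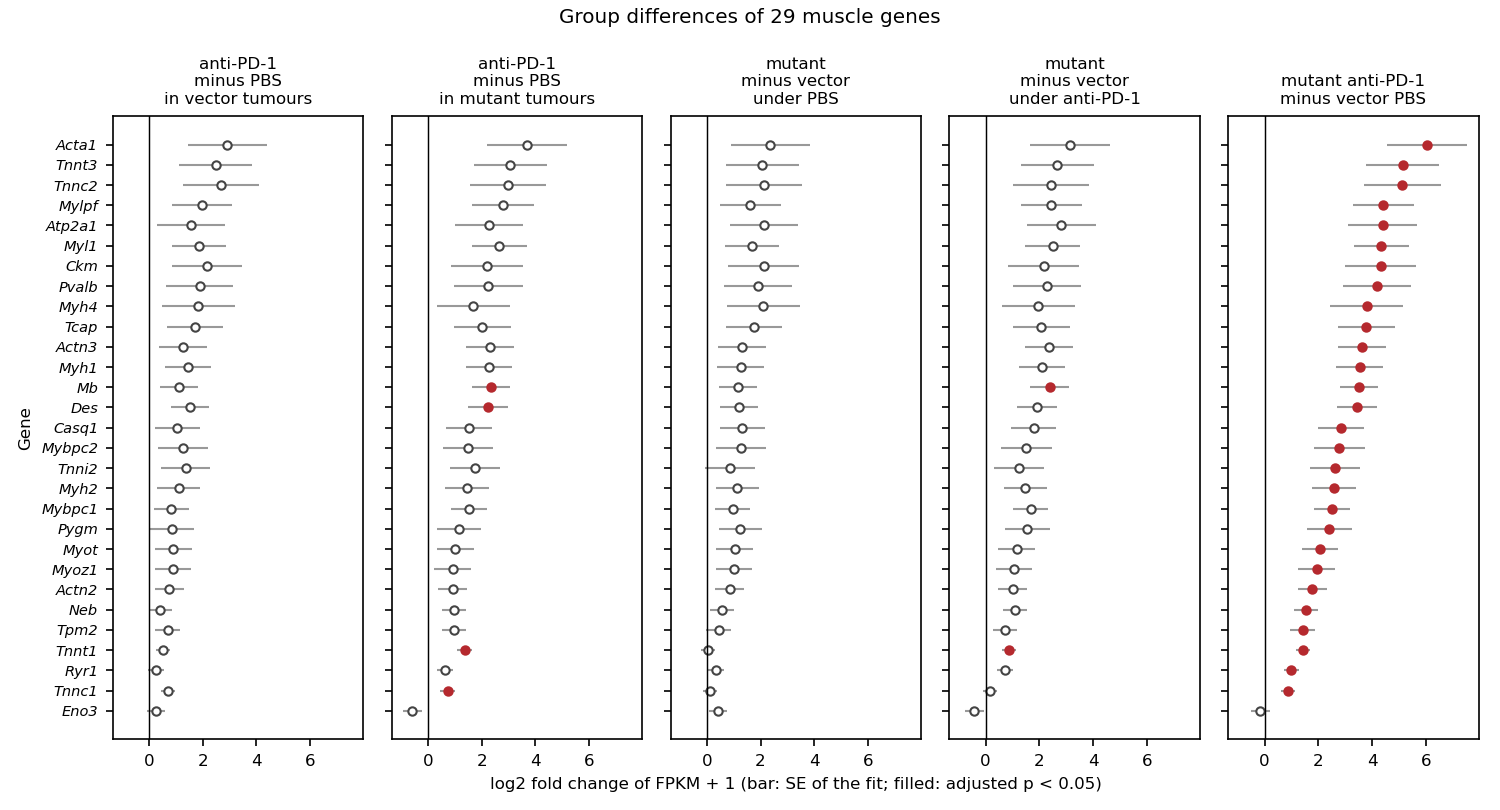
Log2 fold change with its SE for the 29 genes tested, ordered by the last panel, in the 4 group comparisons and in mutant anti-PD-1 against vector PBS tumours; filled points passed an adjusted p of 0.05 by limma. The last panel is filled for 28 of 29 (background 16.6% of all genes higher). It was added after the values were seen, and many genes passed the filter only through high tumours, so that count is no support. The error bars of Tnnt1 and Tnnc1 are narrow beside those of Acta1 and Tnnc2, on a scale that compresses low FPKM.

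Of 40 other genes of skeletal muscle, 23 passed the filter. In mutant tumours with anti-PD-1 against PBS, 5 of them were called higher (Sln, Cacng1, Smpx, Lmod3 and Lmod2, against a background of 15.9%) and 2 lower (background 14.6%), a share near that of any gene or below it, with a median of 0.76. Without the filter, 5 of 40 were higher (Sln, Cacng1, Cacnb1, Dusp27 and Musk, background 10.8%) and 0 lower, so the calls of Smpx, Lmod3, Lmod2 and both lower genes ended. Sarcolipin (Sln), a small inhibitor of the calcium pump, was at 2.13, 2.53, 9.17, 8.54 and 1.14 FPKM in mutant anti-PD-1 tumours, 1.61, 0, 0.678, 0 and 0.279 FPKM in vector anti-PD-1 tumours and 0 to 1.47 FPKM in mutant PBS tumours. It rose by 1.84 ± 0.40 (limma adjusted p = 0.00222), a call made in 20 of 21 alternatives, and was 1.73 higher in mutant than in vector tumours under anti-PD-1 (adjusted p = 0.00306). Its highest values, in mutant anti-PD-1 replicates 3 and 4, were not in the tumours with the most Acta1. Cacng1, a subunit of the voltage-sensing calcium channel, rose by 1.13 (limma adjusted p = 0.0205), which passed in 15 of 21 alternatives and was lost in 4 of 10 fits without a single tumour. Lmod3, which nucleates thin filaments, differed by 0.97 (limma adjusted p = 0.0313), which passed in 12 of 21 and was lost in 6 of those 10.

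Cox6a2, the muscle form of a cytochrome oxidase subunit, went its own way. It was at 1.85 to 2.78 FPKM (PBS) and 2.92 to 10.4 FPKM (anti-PD-1) in vector tumours, and at 27.4, 19.6, 20.1, 12.8 and 12.5 FPKM (PBS) and 7.29, 24.5, 5.6, 7.05 and 2.4 FPKM (anti-PD-1) in mutant tumours. The 5 mutant PBS tumours were all above the 5 vector PBS tumours, also where Acta1 was below 1 FPKM. It was 2.52 ± 0.36 higher in mutant than in vector tumours under PBS (limma adjusted p = 0.00130), a call made in 19 of 21 alternatives. With anti-PD-1 in mutant tumours its difference was -1.07 (limma adjusted p = 0.0326), which passed in 10 of 21 alternatives and was lost in 7 of 10 fits without a single tumour. That of the acetylcholine receptor subunit Chrna1 was -0.54 (limma adjusted p = 0.0386), which passed in 8 of 21 and was lost in 5 of 10. In mutant against vector under anti-PD-1, 5 of 23 were higher (Lmod2, Myom2, Sln, Trim72 and Lmod3, background 17.8%), and 7 of 40 without the filter (background 12.3%), where Myom2 was not called. In vector tumours with anti-PD-1 against PBS 0 of 23 passed, while the difference of responses was negative for Cox6a2 (-1.93 ± 0.51, limma adjusted p = 0.0262; not called without the filter).

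Genes of several other tissues were also high in some or all mutant anti-PD-1 tumours. Within that group, the endothelial, Schwann cell, fat cell and smooth muscle sums were highest in replicates 1 and 2. Both are among the 3 least correlated libraries. Beside the counts below stands the background of all genes by limma with the filter. With anti-PD-1 in mutant tumours 15.9% of them rose and 14.6% fell. The 8 T cell genes, which all rose in mutant tumours with anti-PD-1, summed to 95.5 to 148 FPKM in mutant anti-PD-1 tumours and 1.64 to 45.5 FPKM with PBS, and in vector tumours to 3.33 to 11.7 FPKM with anti-PD-1 and 1.07 to 3.05 FPKM with PBS. Mutant PBS replicate 3, richest in muscle RNA outside mutant anti-PD-1, was also the 45.5 FPKM tumour. Macrophage genes, of which 6 of 8 rose in mutant tumours with anti-PD-1, summed to 3351, 2833, 1322, 1370.5 and 1629 FPKM in the mutant anti-PD-1 tumours and to 924 FPKM or less elsewhere. Endothelial genes, of which 5 of 6 rose, summed to 136, 96.5, 32.8, 41.1 and 40.9 FPKM there and to 38.3 FPKM or less elsewhere. Of 6 tendon and fascia genes both tested, Thbs4 and Fmod, rose, and their sum was 2.76 to 22.3 FPKM against 5.94 FPKM or less elsewhere. Of 7 Schwann cell genes 3 rose (Cnp, Mbp and Pmp22) and Prx fell, and their sum reached 75.5 and 47.5 FPKM in mutant anti-PD-1 replicates 1 and 2 against 29.2 FPKM or less outside that group. Fat cell genes without Fabp4 summed to 179, 37.2, 1.77, 3.8 and 5.25 FPKM in the mutant anti-PD-1 tumours and 62.4 FPKM in mutant PBS replicate 3. They were also at 15.5 FPKM in mutant PBS replicate 5, where Acta1 was 0.778 FPKM, and at 8.32 FPKM in vector anti-PD-1 replicate 3. Smooth muscle genes summed to 122, 106, 29.7, 41.4 and 23.1 FPKM in the mutant anti-PD-1 tumours and 17.9 to 47.5 FPKM in the others, so Des and Tpm2 can have another source there. The part of these tissues in the muscle values was not tested. Of colon epithelium, Krt20 was at 4.16 to 93.6 FPKM and Krt18 at 0.572 to 22.6 FPKM, while Epcam and Cdh1 stayed at 0.840 and 0.638 FPKM or less and Cdx1 was listed at 0 in all 20 tumours.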

How the data were processed

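RNA of 20 tumours, 5 per group, was measured by RNA sequencing. Each deposited table holds 1 value per gene, taken as FPKM made by the authors with Cuffnorm, which the submitters' processing notes name beside STAR 2.5, FastQC, DESeq and mm10 without saying how each was used; the unit was inferred from those notes and the values. For annotation, strandedness and reads of several genes, the sources used here say nothing. Tables of FPKM give no read depth, so no counting interval was made. Libraries summed to 328740 to 566913 FPKM and held 11182 to 13769 genes at 1 FPKM or more. The submitters' labels give 5 mice per group, and nothing says how tumours were dissected.

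Identifiers were matched to GENCODE vM21 (55154 of 55335 genes). Values were analysed as log2(FPKM + 1), which understates the change of low genes. The 13982 genes that reached 1 FPKM in 5 or more libraries were fitted with limma 3.58.1 (R 4.3.3, trend on intensity), 4 group means, a term for the identifier style of the title (M and a number in 11 libraries, a number alone in 9; its meaning is not given) and 1 spread for all groups. p-values were adjusted by Benjamini-Hochberg over all genes tested, with a threshold of 0.05. The 5 planned comparisons share groups and are not independent. The fit was tested on simulated data. Scores and ratios are descriptions without a test. Scripts also used Python 3.11.15, numpy 2.4.6, pandas 2.3.3 and matplotlib 3.10.9.

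The 36 genes and all lists were chosen with earlier results of these data known. Values in every tumour were given for set members of each role and for members past the threshold where 5 or fewer passed. Of other lists they were given for up to 4 genes with the smallest p. Chrna1, Lmod2, Myom2, Trim72, Myf5, Myf6 and Myod1 are named beyond that. The comparison of mutant anti-PD-1 with vector PBS, the minimums of the ratios (myosin sum, Tnnc2 and Tnnt3 of 2 FPKM, Acta1 of 10 FPKM, fast genes of 20 FPKM), the fits that left out tumours without a filter, and the listing of Cox6a2 and the heart-named genes were chosen after values were seen. Promoters come from RefSeq on GRCm38.p6; the 50 bases after each start site were left out. Alternatives were a pseudocount of 0.1, no filter, other scalings, no style term or trend, each style alone, weights per group, the compared groups alone, and leaving out each tumour or the 3 least correlated libraries.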

Additional observations from a re-analysis of the deposited data

Results flagged for a closer look

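In groups of 5, a tumour was looked at again when its gap to the nearest other took more than 0.71 of the group's range on log2(FPKM + 1). Of 84 groups checked 7 were so. The chance rate of about 1 in 20 holds for independent normal values, and these are neither. Where all but 1 tumour of a group are at 0, any value above 0 passes the limit. Myh2, Tnnc2 and Pvalb in vector PBS tumours are such groups, so the count is not set against that rate. Of the 7, 5 concern vector PBS replicate 1, which stood above the other 4 vector PBS tumours in Myh4 (0.17), Myh1 (0.31), Myh2 (0.20), Tnnc2 (1.62) and Pvalb (0.56). It is the vector PBS tumour with the most Acta1, 2.15 FPKM. The embryonic myosin Myh3 stood apart in vector anti-PD-1 replicate 5 (0.22) and in mutant PBS replicate 5 (0.012), both at low levels.

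By a test of the difference itself, the anti-PD-1 response differed between mutant and vector tumours for 5 muscle genes, taken from 2 fits. Without a filter these were 2 of 10 myogenic genes, 1 of the 36 members and 1 of 8 heart-named genes tested. With the filter there was 1 of 23 other skeletal muscle genes, while 0 of 29 members passed. By the same limma test, 7.4% of all genes tested with the filter were higher and 1.95% lower, and 3.01% were higher without it. The response was larger in mutant tumours for Myh3 (0.89), Chrng (0.35), Tnni3 (1.32) and Myh8 (0.54) in the fit without a filter. Of 20 such fits without a single tumour, Chrng was lost in 17 and Myh8 in 8, and Myh3 and Tnni3 in 0. The response itself was thus stable for only some of these genes. For Cox6a2 the response was smaller in mutant tumours (-1.93) in the fit with the filter. That call passed in 24 of 30 alternatives and not without a filter.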

How the results depend on the processing

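With anti-PD-1 against PBS in mutant tumours (4 genes called), the count was 10 with weights per group, 2 without the 3 least correlated libraries, 0 in M-style and 19 in number-only libraries alone, and 1 to 21 when single tumours were left out. For mutant against vector under anti-PD-1 (2 called) it was 0 with weights per group, 1 without the 3 libraries, 1 in M-style and 0 in number-only libraries alone, 1 with the 2 groups alone, and 1 to 18 when single tumours were left out. For the difference of responses (0 called) it was 1 without a filter, Myh8. For mutant anti-PD-1 against vector PBS (28 called) it was 11 without the 3 libraries, 5 in M-style, 18 in number-only libraries alone and 13 to 28 when single tumours were left out. The counts of 0 for anti-PD-1 against PBS in vector tumours and for mutant against vector under PBS stayed 0 in every alternative run. No share of all genes is given for the alternatives, so their counts stand without a background and are no result about muscle genes.

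With a pseudocount of 0.1 the score difference in vector tumours was 2.04 and the fast minus slow score of vector PBS tumours 0.48. Leaving out single tumours gave score differences of 0.67 to 1.41 and 0.998 to 2.04 for anti-PD-1 in vector and mutant tumours, and 0.42 to 1.35 and 0.95 to 1.79 for mutant against vector under PBS and anti-PD-1.

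Differences that turned sign were small in the main fit or of wide error, and the cause was not tested. Tnnt1 log2 fold change: mutant minus vector under PBS was -0.12 with a pseudocount of 0.1, -0.11 in number-only libraries, -0.0023 and -0.043 without mutant PBS replicates 2 and 3, and up to 0.12 without other tumours. Actn3 log2 fold change: mutant minus vector under PBS was -0.13 and Ryr1 log2 fold change: mutant minus vector under PBS -0.016 in number-only libraries. Tnnc1 log2 fold change: mutant minus vector under anti-PD-1 was -0.0019 in number-only libraries, -0.0087 when vector anti-PD-1 replicate 2 was left out, -0.12 when mutant anti-PD-1 replicate 1 was, and at most 0.44 without others. Without mutant anti-PD-1 replicate 1, Eno3 log2 fold change: mutant minus vector under anti-PD-1 was 0.010 and Eno3 log2 fold change: mutant anti-PD-1 minus vector PBS 0.28; without other tumours they went down to -0.72 and -0.45. Acta1 log2 fold change: difference of the anti-PD-1 responses (mutant minus vector) was -0.096 without vector anti-PD-1 replicate 2.

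Rescaling all libraries to the same total moved the median of all genes to -0.20 for anti-PD-1 in vector tumours, 0.18 for mutant against vector under anti-PD-1 and 0.18 for the difference of responses. No paired analysis was possible because the replicate numbers follow the order of deposition and pair no tumours.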
